A study of Mus musculus with 4 samples.

Results

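The cells described here are those that the authors' annotation of antigen-presenting cells (APCs) calls mono: 153 of 1731 annotated APCs, 78 from the RGX-104 library and 75 from the control library. They came from lymph nodes draining tumors in wildtype mice. The RGX-104 group was fed chow that held RGX-104, which activates the liver X receptors (LXR), from day 3 after tumor cells were injected, and the control group was fed control chow. In both groups the nodes were taken on day 8 and digested with collagenases and DNase, and T cells and APCs were sorted for single-cell RNA and T cell receptor (TCR) sequencing. Each chow is 1 RNA library and 1 TCR library, so no difference below has a replicate check. How many mice a library holds, their age and the tumor line are not given in the sources used here, and every mouse carried tumor cells, so no group shows the node without them. Intervals are 95% intervals that cover counting error only.

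Monocytes leave the bone marrow for the blood and from there enter inflamed tissue and lymph nodes, where they become phagocytes or cells that present antigen. In mice, classical monocytes carry much Ly6C and the chemokine receptor CCR2, while nonclassical monocytes carry little Ly6C and much CX3CR1 and patrol vessel walls. The liver X receptors are oxysterol-sensing nuclear receptors that switch on genes of cholesterol export and fatty acid synthesis. Interferon gamma, made mainly by T cells and NK cells, acts on genes for GTPases that attack pathogens, for chemokines that draw T cells and for antigen presentation.

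There were 8671 barcodes with 38480769 unique molecular identifiers (UMIs) in the RGX-104 library and 7346 barcodes with 31530931 UMIs in the control library. Mono cells had a median of 8314 UMIs and 2466 genes in RGX-104, against 6866 UMIs and 2178 genes in control. Their median mitochondrial share was 2.16% in RGX-104 and 1.63% in control. Summed, they held 681799 UMIs in RGX-104 and 544390 UMIs in control. The libraries had 95 barcodes in common, and 0 of these named a mono cell in both. No mono cell shared its barcode with a TCR contig (0 of 78 in RGX-104, which allows a share of up to 3.85%, and 0 of 75 in control, which allows up to 4.0%). The authors called 68 RGX-104 cells and 64 control cells G1.

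The given monocyte markers stood in the mono cells of both libraries. A level is a gene's UMIs over the summed cells, scaled to a common total (CPM). Ly6c2, the gene for Ly6C, lies on chromosome 15 (75108161 to 75112066, GRCm38) and stood at 1574 CPM in RGX-104 and 1071 CPM in control. Ccr2 stood at 474 CPM in RGX-104 and 395 CPM in control. Fcgr1, a high-affinity antibody receptor, stood at 64.5 CPM in RGX-104 and 58.8 CPM in control. Both were close to level between the chows. Plac8 stood at 3921 CPM in RGX-104 and 3821 CPM in control, and Ms4a4c at 340 CPM in RGX-104 and 408 CPM in control. Ly6c2 was higher still in pDC, at 3385 CPM in RGX-104 and 2595 CPM in control, and in pre-DC2, at 2273 CPM in RGX-104 and 2158 CPM in control, so it does not single out mono. Lysozyme (Lyz2) stood at 16285 CPM in RGX-104 mono and 13652 CPM in control mono, near its levels in macrophages, 19392 CPM in RGX-104 and 15860 CPM in control. The reads of Ly6c2 and of its near-identical neighbor Ly6c1 may not be told apart.

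Markers of other cells were low in the summed mono cells. Flt3, the dendritic cell growth factor receptor, stood at 4.40 CPM in RGX-104 mono and 16.5 CPM in control mono, against 108 to 702 CPM in the dendritic cell types. Siglech of plasmacytoid dendritic cells had 0 UMIs in the mono cells of both libraries. The 12 T cell markers summed to 55.7 CPM in RGX-104 and 45.9 CPM in control, and the 10 B cell markers to 177 CPM in RGX-104 and 231 CPM in control. Single cells did carry them. At least 2 UMIs of B cell markers were found in 21 of 78 RGX-104 cells (26.9%) and 33 of 75 control cells (44%). For T cell markers these were 8 RGX-104 cells and 4 control cells. The 6 erythroid markers were at 0 in both. The 20 macrophage markers summed to 1600 CPM in RGX-104 and 1045 CPM in control, with 5 of them at 0 in RGX-104 and 6 in control, and Apoe alone made up 817 CPM in RGX-104 and 400 CPM in control. C1qa, a complement gene of tissue macrophages, stood at 55.7 CPM in RGX-104 mono and 7.35 CPM in control mono, against 1672 CPM in RGX-104 macrophages and 934 CPM in control macrophages. A UMI of C1qa, C1qb or C1qc was present in 14 of 78 RGX-104 cells and 4 of 75 control cells.

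**Figure D1:**
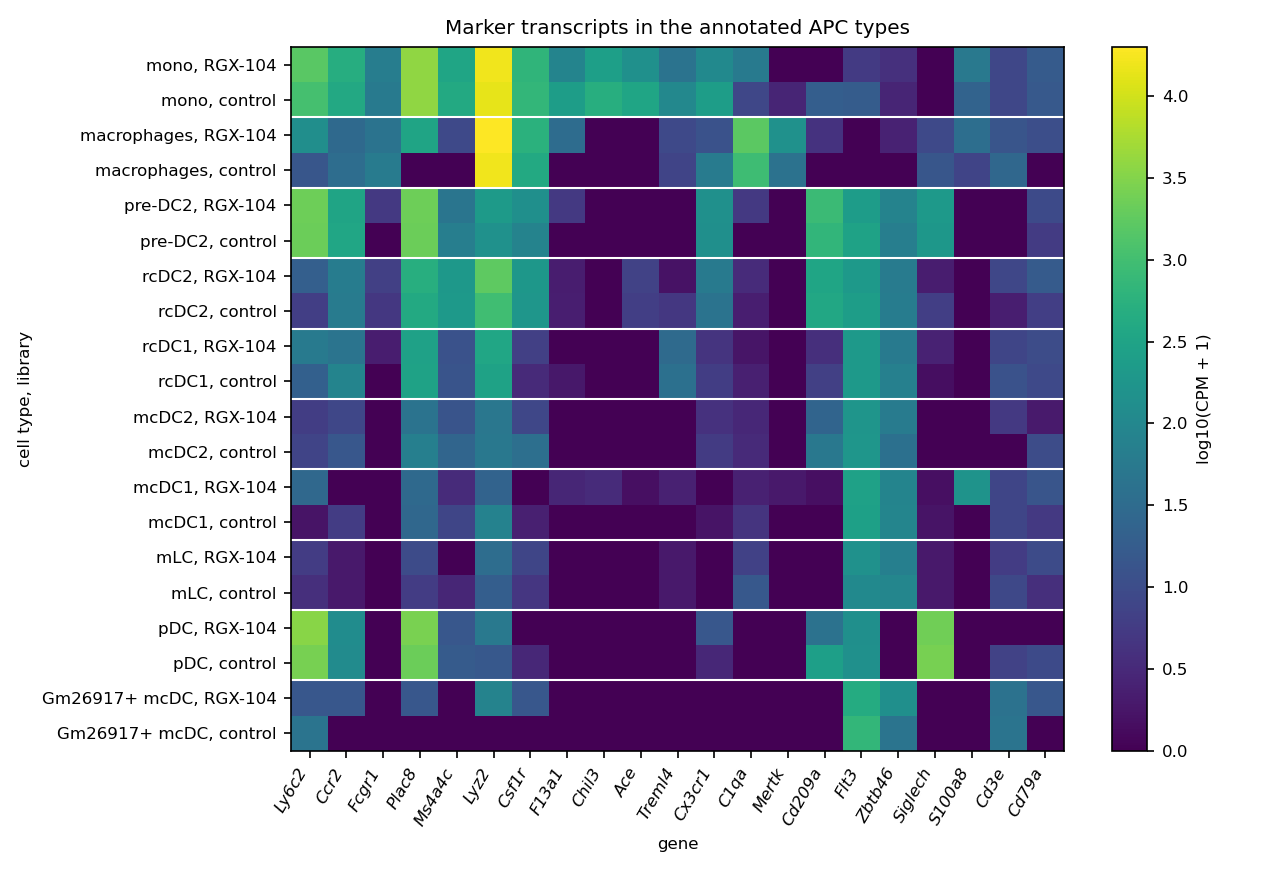
Each row is 1 of the authors' 10 APC types in 1 library, RGX-104 above control, each column a gene, and color gives log10(CPM + 1) of the summed cells. The mono rows carry Chil3 and Ace, which are close to 0 in the other types, beside Ly6c2 and Plac8, which pDC and pre-DC2 share.

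Of 2386 genes with at least 50 CPM in mono of both libraries, 4 (0.168%) lay at least 4-fold above every other type of 20 or more cells, and 20 (0.838%) at least 2-fold. Chil3, a secreted chitinase-like protein, stood at 265 CPM in RGX-104 and 492 CPM in control, and the lower of these was 109 times the highest level of another type. Ace, the angiotensin-converting enzyme (chromosome 11, 105967948 to 105989964), stood at 145 CPM in RGX-104 and 336 CPM in control, 23.8 times the highest other type. Ms4a4a stood at 188 CPM in RGX-104 and 338 CPM in control, and Fn1, fibronectin, at 185 CPM in RGX-104 and 426 CPM in control. The next 8 were Oas3, Slfn1, Klra2, Nxpe4, Hp, Ms4a6b, Gm9733 and Pou2f2, at ratios of 3.99 (Oas3) to 2.70 (Pou2f2). Chil3 is known from classical and Ace from nonclassical monocytes, so transcripts of both kinds stood in the annotated cells. Since the types were made by clustering these same cells, these values describe mono and test nothing.

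Mono made up 8.22% of annotated APCs in RGX-104 (6.55% to 10.2%, 78 of 949) and 9.59% in control (7.62% to 11.9%, 75 of 782). The ratio was 0.857 (0.616 to 1.19), so no difference in their share was detectable at this number of cells. Shares of mono cells with a UMI of subset genes differed between the libraries, most with intervals that overlap. At least 1 Ly6c2 UMI was found in 58 RGX-104 cells (74.4%, 63.2% to 83.6%) and in 44 control cells (58.7%, 46.7% to 69.9%), with intervals that overlap. Every cell was also thinned to 2000 UMIs, which kept 74 RGX-104 and 73 control cells. The Ly6c2 shares were then 59.5% in RGX-104 (47.4% to 70.7%) and 39.7% in control (28.5% to 51.9%), again with overlap. Ace and Treml4 are genes of nonclassical monocytes. A UMI of either was found in 34 RGX-104 cells (43.6%, 32.4% to 55.3%) and 48 control cells (64.0%, 52.1% to 74.8%), with intervals that overlap. After thinning these shares were 24.3% of RGX-104 cells (15.1% to 35.7%) and 52.1% of control cells (40.0% to 63.9%), without overlap. In mLC, whose median depth of 7330 UMIs in RGX-104 and 6906 UMIs in control is close to that of mono, Ly6c2 UMIs occurred in 2.99% of RGX-104 cells and 2.05% of control cells. Ace UMIs occurred in 0 of 134 RGX-104 mLC and 0 of 146 control mLC, which allows up to 2.24% and 2.05%.

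Between chows, 3295 genes had at least 50 UMIs over both libraries in mono and count as measured. The minimum is over the sum, so a gene with few UMIs in 1 library counts only if it is higher in the other. In RGX-104 257 of the measured genes (7.8%) were higher by 1.5-fold or more and 330 (10%) were lower by 1.5-fold or more. At 2-fold these numbers were 91 (2.76%) and 67 (2.03%). The log2 ratio of all measured genes had a median of -0.05. With 1 library per chow these counts describe the libraries and come from no test. The 12 genes highest in RGX-104, ranked by the lower bound of their interval, were Scd2, Mt1, Ly6a, AW112010, Cxcl10, Gbp4, Abca1, Cfb, Gbp5, Srebf1, Gbp2 and Gbp7. By their known roles, Scd2, Abca1 and Srebf1 are LXR targets, and Gbp2, Gbp4, Gbp5, Gbp7 and Cxcl10 are induced by interferons. Ly6a, which encodes the surface protein Sca-1, stood at 754 CPM in RGX-104 and 116 CPM in control, a 6.51-fold difference (5.01 to 8.60). Mt1, a metal-binding metallothionein, stood at 422 CPM in RGX-104 and 56.9 CPM in control (7.42-fold, 5.11 to 11.1). Cfb, complement factor B, stood at 427 CPM in RGX-104 and 82.7 CPM in control (5.16-fold, 3.76 to 7.23).

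The interferon-induced GTPases had the highest median of the lists with 5 or more measured members. All 9 measured members of 18 listed were higher in RGX-104 by 1.5-fold or more, beside 7.8% of all measured genes. The members' log2 ratios had a median of 2.76. Gbp4, Gbp5, Gbp7, Gbp8, Iigp1 and Igtp had so few control UMIs that they could count as measured only if higher in RGX-104. The count of higher members and the median are thus set in part by the minimum. The level summed over all listed genes, which this minimum does not touch, was 1586 CPM in RGX-104 and 336 CPM in control. The guanylate-binding protein Gbp2 stood at 487 CPM in RGX-104 and 101 CPM in control (4.82-fold, 3.61 to 6.53). Gbp5, which also promotes inflammasome assembly, had 102 UMIs in RGX-104 and 12 in control (6.79-fold, 3.72 to 13.6). Gbp4 had 48 UMIs in RGX-104 and 3 in control. Gbp7 and Gbp8 showed the same order, with 60 UMIs of Gbp7 in RGX-104 and 6 in control, and 47 of Gbp8 in RGX-104 and 5 in control. Iigp1, an immunity-related GTPase that acts on vacuoles that hold pathogens, had 139 UMIs in RGX-104 and 1 in control (111-fold, 19.6 to 4415). Irgm1, a regulator of this family, had 95 UMIs in RGX-104 and 31 in control, and Igtp had 53 in RGX-104 and 13 in control. Gbp3 differed least, with 68 UMIs in RGX-104 and 31 in control (1.75-fold, 1.13 to 2.77). Of the 7 listed genes below the minimum, each had more UMIs in RGX-104, from Gbp6 with 42 in RGX-104 and 3 in control to Gbp2b with 1 in RGX-104 and 0 in control. The Gbp genes are close paralogs, and how reads shared between them were counted is not given in the sources used here.

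The promoters of several of these genes share a run of letters known from interferon responses. Shown are windows of 300 bases, 250 before to 50 after the RefSeq start (GRCm38.p6), of a pair of guanylate-binding protein genes, an immunity-related GTPase and the chemokine Cxcl10. Capitals mark GAAA, any 2 bases and GAAA again on either strand, the core of the interferon-stimulated response element (ISRE) that interferon regulatory factors are known to bind. The windows are Gbp2 at chr3:142620413-142620712 (plus strand), Gbp5 at chr3:142496684-142496983 (plus strand), Irgm1 at chr11:48871371-48871670 (minus strand) and Cxcl10 at chr5:92348840-92349139 (minus strand), each written 5′ to 3′ on the gene's strand.
Gbp2: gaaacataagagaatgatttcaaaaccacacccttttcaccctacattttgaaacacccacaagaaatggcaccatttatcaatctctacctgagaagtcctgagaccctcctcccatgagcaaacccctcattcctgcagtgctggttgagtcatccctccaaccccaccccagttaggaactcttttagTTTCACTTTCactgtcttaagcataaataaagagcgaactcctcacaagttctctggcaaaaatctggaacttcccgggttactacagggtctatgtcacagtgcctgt
Gbp5: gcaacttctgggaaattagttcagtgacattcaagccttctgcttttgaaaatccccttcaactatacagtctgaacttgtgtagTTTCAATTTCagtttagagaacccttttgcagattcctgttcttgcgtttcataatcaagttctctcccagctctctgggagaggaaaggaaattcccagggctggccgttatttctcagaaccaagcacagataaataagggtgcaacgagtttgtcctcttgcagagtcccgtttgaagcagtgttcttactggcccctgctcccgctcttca
Irgm1: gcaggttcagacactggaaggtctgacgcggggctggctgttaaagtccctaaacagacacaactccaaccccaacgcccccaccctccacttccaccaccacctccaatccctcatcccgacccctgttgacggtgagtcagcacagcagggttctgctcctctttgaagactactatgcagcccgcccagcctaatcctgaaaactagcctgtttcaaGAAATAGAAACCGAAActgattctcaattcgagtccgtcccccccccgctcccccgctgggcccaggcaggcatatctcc
Cxcl10: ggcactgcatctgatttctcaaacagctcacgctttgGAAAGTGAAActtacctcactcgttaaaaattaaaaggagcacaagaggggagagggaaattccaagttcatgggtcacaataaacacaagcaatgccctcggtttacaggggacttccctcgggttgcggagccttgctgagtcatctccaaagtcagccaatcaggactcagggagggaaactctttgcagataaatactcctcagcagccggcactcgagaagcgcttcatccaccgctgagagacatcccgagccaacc
In Irgm1 a pair of matches overlap, at -30 and -24 from the start. In Gbp2 the match begins at -59, in Gbp5 at -165 and in Cxcl10 at -213. Of the 9 measured GTPase genes 6 had a promoter in the RefSeq table, and all 6 (Gbp2, Gbp3, Gbp5, Gbp7, Igtp and Irgm1) held the motif in a window. Counted by window, 6 of their 7 held it (85.7%), against 1131 of all 32851 promoter windows (3.44%). Of the interferon gamma list, from which Cxcl10 is shown, 4 of 15 genes with a window held it, in 4 of 17 windows. The LXR element pattern, AGGTCA and AGGTCA with 4 bases of any kind between them, occurred on either strand in 0 of the 8 measured LXR targets with a window and in 5 windows in all (0.0152%). A match is a run of letters in a window and shows no binding.

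The wider interferon gamma list of 20 genes was higher in part. Of 18 measured members 11 were higher in RGX-104 by 1.5-fold or more and 0 were lower by as much. Of all measured genes 7.8% were higher and 10% lower. The median of the members' log2 ratios was 0.71. Irf1, a transcription factor that interferons induce, stood at 330 CPM in RGX-104 and 99.2 CPM in control (3.33-fold, 2.46 to 4.56). Irf8 stood at 245 CPM in RGX-104 and 149 CPM in control (1.65-fold, 1.26 to 2.17). Socs1, a feedback inhibitor of the pathway, had 77 UMIs in RGX-104 and 11 in control (5.59-fold, 2.96 to 11.7). The receptor chains and kinases stayed within 1.5-fold, at RGX-104 to control ratios of 0.783 (Ifngr1), 0.873 (Ifngr2), 0.816 (Jak1) and 1.09 (Jak2). Ciita, the switch of class II genes, had a ratio of 1.05 (0.755 to 1.46).

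Cxcl9 and Cxcl10 encode ligands of CXCR3, through which activated T cells are drawn. Cxcl9 (chromosome 5, 92321331 to 92328079) stood at 996 CPM in RGX-104 mono and 51.4 CPM in control mono, 19.4-fold higher (13.3 to 29.4). In control 78.6% of its 28 UMIs came from 1 cell. With the top cell of each library left out the log2 ratio was 6.25, against 4.28 with all cells. A Cxcl9 UMI was found in 38 RGX-104 cells (48.7%, 37.2% to 60.3%) and 4 control cells (5.33%, 1.47% to 13.1%), and after thinning in 35.1% of RGX-104 cells and 2.74% of control cells. In mLC the shares were 3.73% in RGX-104 and 0.685% in control. Cxcl10 stood at 994 CPM in RGX-104 and 180 CPM in control (5.52-fold, 4.46 to 6.90), with a UMI in 34 RGX-104 cells and 12 control cells, and 48.0% of its control UMIs came from 1 cell. Ccl5, a further chemokine for T cells, stood at 427 CPM in RGX-104 and 110 CPM in control (3.87-fold, 2.92 to 5.20). Of the 10 measured chemokines of myeloid cells, those 3 were higher and 1 was lower, beside 7.8% and 10% of all measured genes. The lower one was Ccl9, at 117 CPM in RGX-104 and 186 CPM in control (0.632, 0.466 to 0.857).

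Genes known chiefly for type I interferon differed little as a list. Of 18 measured members 2 were higher by 1.5-fold or more and 1 lower, beside 7.8% higher and 10% lower of all measured genes. The median of the members' log2 ratios was 0.15. Isg15, a ubiquitin-like modifier, stood at 446 CPM in RGX-104 and 239 CPM in control (1.87-fold, 1.52 to 2.31), and Oasl2 at 145 CPM in RGX-104 and 86.3 CPM in control (1.68-fold, 1.18 to 2.43). Cmpk2 stood at 39.6 CPM in RGX-104 and 66.1 CPM in control, with an interval of its ratio (0.350 to 1.01) that holds 1. Ifi27l2a, a member with many UMIs, stood at 2131 CPM in RGX-104 and 2689 CPM in control (0.792, 0.737 to 0.853).

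**Figure D2:**
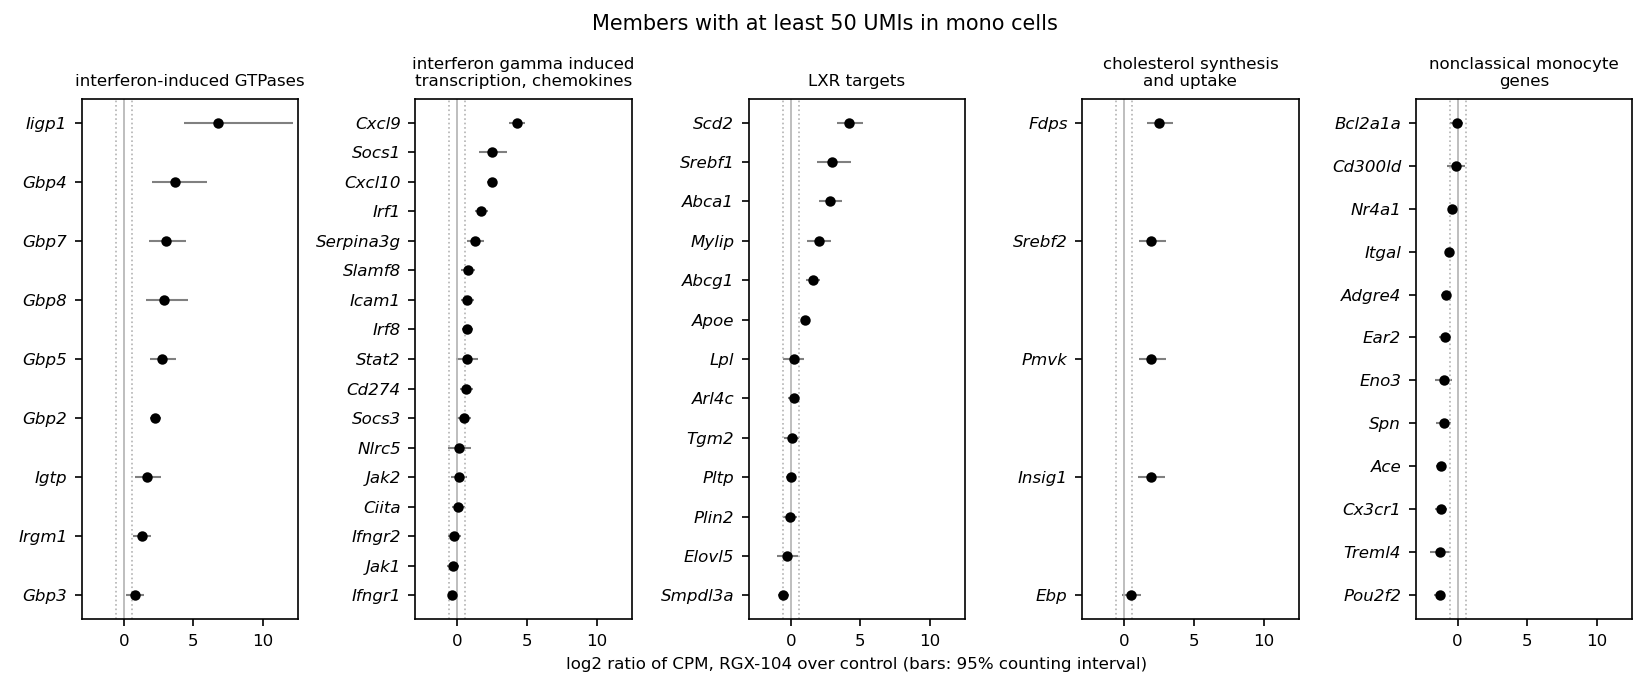
Points give the log2 ratio of CPM in mono, RGX-104 over control, for members of 5 lists with at least 50 UMIs, and bars the 95% counting interval. Dotted lines mark 1.5-fold either way. The 9 GTPases lie right of the line, LXR targets split between 6 right of it and 7 near 0, and 9 of 12 nonclassical monocyte genes lie left of it.

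Genes of antigen presentation differed less than the GTPases. In the class I list 3 of 19 measured members were higher in RGX-104 by 1.5-fold or more and 0 lower. Of all measured genes 7.8% were higher and 10% lower. The median of the class I log2 ratios was 0.30. Tap2, a chain of the peptide transporter, stood at 157 CPM in RGX-104 and 71.6 CPM in control (2.19-fold, 1.51 to 3.25). Its partner Tap1 stood at 271 CPM in RGX-104 and 143 CPM in control (1.89-fold, 1.45 to 2.50), and H2-T22 at 205 CPM in RGX-104 and 127 CPM in control (1.62-fold, 1.21 to 2.19). In the class II list 2 of 13 were higher and 2 lower, beside the same shares of all measured genes. H2-DMa, which loads peptides, stood at 783 CPM in RGX-104 and 467 CPM in control (1.68-fold, 1.44 to 1.96), and the protease gene Ctsl at 79.2 CPM in RGX-104 and 36.7 CPM in control (2.16-fold, 1.27 to 3.80). The proteases Ctsb and Lgmn were lower, at ratios of 0.621 (0.535 to 0.720) and 0.613 (0.402 to 0.929). H2-Ab1, a class II chain, stood at 5615 CPM in RGX-104 and 4109 CPM in control (1.37-fold, 1.30 to 1.44). In cells without a Ly6c2 UMI it stood at 6111 CPM in RGX-104 and 6609 CPM in control (0.925, 0.847 to 1.01), so its direction depended on which mono cells were summed.

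Of 13 measured LXR list members 6 were higher in RGX-104 by 1.5-fold or more, beside 7.8% of all measured genes, and 0 lower. Of these 6, Scd2, Abca1, Srebf1 and Mylip had so few control UMIs that they could count as measured only if higher in RGX-104. The median log2 ratio of 0.21 sits between these 6 and the 7 others, and was 1.22 over genes of 10 or more UMIs and 0.97 with each gene's top cell left out. Scd2, a fatty acid desaturase on chromosome 19 (44293676 to 44306864), stood at 368 CPM in RGX-104 and 20.2 CPM in control, 18.2-fold higher (10.0 to 37.0). Its UMIs occurred in 64 of 78 RGX-104 cells and 9 of 75 control cells, and after thinning in 44.6% of RGX-104 cells and 2.74% of control cells. Abca1, which moves cholesterol out of the cell (chromosome 4, 53030789 to 53159988), had 132 UMIs in RGX-104 and 15 in control (7.03-fold, 4.11 to 12.9), in 54 RGX-104 cells and 12 control cells. The related exporter Abcg1 had 166 UMIs in RGX-104 and 44 in control (3.01-fold).

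Srebf1, a transcription factor that drives the making of fatty acids, stood at 101 CPM in RGX-104 and 12.9 CPM in control (7.87-fold, 3.62 to 20.3). Mylip, a ubiquitin ligase, stood at 110 CPM in RGX-104 and 27.6 CPM in control (3.99-fold, 2.27 to 7.49). Scd1 was under the minimum, with 44 UMIs in RGX-104 and 3 in control. Apoe, the lipid carrier, stood at 817 CPM in RGX-104 and 400 CPM in control (2.04-fold, 1.74 to 2.40). Apoe is also a macrophage marker, and its log2 ratio was 1.18 in mono cells without C1q UMIs, against 1.03 in all, and 0.39 without cells that carried UMIs of T or B cell markers. Lpl, Pltp, Tgm2, Arl4c, Elovl5, Plin2 and Smpdl3a lay within 1.5-fold, at ratios of 0.691 (Smpdl3a) to 1.15 (Lpl). The receptors themselves were sparse. Nr1h3, the gene of LXR alpha, had 17 UMIs in RGX-104 and 31 in control, and Nr1h2, the gene of LXR beta, had 28 in RGX-104 and 35 in control.

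Genes of cholesterol synthesis and uptake were higher as well. Of 7 measured members of 25 listed, 6 were higher in RGX-104 by 1.5-fold or more and 0 lower. Of all measured genes 7.8% were higher. The median of the members' log2 ratios was 1.92. Fdps, Srebf2, Pmvk and Insig1 had so few control UMIs that they could count as measured only if higher in RGX-104. The count of higher members and the median are thus set in part by the minimum. The level summed over all 25 listed genes, which this minimum does not touch, was 1046 CPM in RGX-104 and 327 CPM in control. Fdps of the mevalonate pathway had 84 UMIs in RGX-104 and 12 in control (5.59-fold, 3.04 to 11.2). Srebf2, the transcription factor of this pathway, had 58 UMIs in RGX-104 and 12 in control (3.86-fold, 2.05 to 7.90), and Pmvk had the same counts. Insig1, which retains the SREBP complex, had 57 UMIs in RGX-104 and 12 in control (3.79-fold). Under the minimum, Idi1 had 38 UMIs in RGX-104 and 4 in control. Sqle had 15 in RGX-104 and 0 in control, which is at least 3.99-fold higher when 3 counts in the control library stand for 0. Genes of cholesterol export and of cholesterol synthesis were thus both higher in the summed mono cells.

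The nonclassical monocyte list went the other way. Of 12 measured members 9 were lower in RGX-104 by 1.5-fold or more, beside 10% of all measured genes, and 0 were higher, and the median of the log2 ratios was -0.96. Ace stood at 145 CPM in RGX-104 and 336 CPM in control, a ratio of 0.432 (0.335 to 0.555). Cx3cr1, the receptor that holds these cells along vessels, stood at 107 CPM in RGX-104 and 248 CPM in control (0.432, 0.320 to 0.578), with a UMI in 32 RGX-104 cells and 52 control cells. Pou2f2, a transcription factor, stood at 111 CPM in RGX-104 and 272 CPM in control (0.410, 0.307 to 0.544). Treml4, a receptor of the TREM family, had 29 UMIs in RGX-104 and 55 in control (0.421, 0.259 to 0.672). Nr4a1, which nonclassical monocytes need for their development, stood at 729 CPM in RGX-104 and 977 CPM in control (0.746, 0.659 to 0.845), within 1.5-fold. Fewer cells of this kind and less RNA in each cannot be told apart from the sums. In cells with a UMI of Ace or Treml4 the list median was -0.46, and in cells without a Ly6c2 UMI -0.31.

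The classical monocyte list had no clear direction. Of 17 measured members 0 were higher by 1.5-fold or more and 4 were lower, beside 7.8% and 10% of all measured genes. The median of the members' log2 ratios was -0.30. That median lay between -0.95 and 0.38 over the alternatives and changed sign in some. The summed level of the list was slightly higher, at 25433 CPM in RGX-104 and 23294 CPM in control, and so was its median per cell, at 240.2 UMIs per 10000 in RGX-104 and 177 in control. Ly6c2 was its highest member, 1.47-fold above control (1.33 to 1.63). The 4 lower were F13a1, Fn1, Gsr and Chil3. F13a1, a clotting factor subunit, stood at 86.5 CPM in RGX-104 and 250 CPM in control (0.346, 0.251 to 0.474), and Gsr, glutathione reductase, had 174 UMIs in RGX-104 and 278 in control. Fn1 had a ratio of 0.434 (0.346 to 0.541) and Chil3 one of 0.539 (0.444 to 0.654). F13a1, Fn1 and Chil3 are transcripts of few cells. Chil3 UMIs occurred in 22 RGX-104 and 25 control cells, and 34.3% of the control UMIs came from 1 cell. Gsr UMIs were common, in 44 RGX-104 cells and 70 control cells. In cells with a UMI of Ace or Treml4, Chil3 was higher, at 452 CPM in RGX-104 and 301 CPM in control, and in cells with neither it was lower, at 137 CPM in RGX-104 and 798 CPM in control.

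The 12 genes of the lower ranking were Anxa1, Cks2, Zfyve9, F13a1, Il4i1, S100a10, Fabp5, Fn1, Pou2f2, Ccdc88a, Ace and Cx3cr1. Anxa1, a protein that limits inflammation, stood at 55.7 CPM in RGX-104 and 184 CPM in control (0.303, 0.203 to 0.445). Fabp5, a fatty acid-binding protein, stood at 207 CPM in RGX-104 and 513 CPM in control (0.404, 0.327 to 0.496), and 1 cell gave 31.9% of its control UMIs. Cks2, a partner of cell cycle kinases, stood at 70.4 CPM in RGX-104 and 219 CPM in control (0.322, 0.225 to 0.454). In the proliferation list Hmgb2 and Top2a were lower of 4 measured, beside 10% lower of all measured genes. Of the 48 control UMIs of Top2a 77.1% came from 1 cell, and of the 312 of Hmgb2 40.4% did. Hmgb2 had a UMI in 71 RGX-104 cells and 56 control cells, so its lower sum leans on that control cell.

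Of 17 measured members of the chemotaxis and adhesion list, 7 were lower in RGX-104 by 1.5-fold or more and 2 higher, beside 10% lower and 7.8% higher of all measured genes, and the median of the log2 ratios was -0.30. The lower ones were Cx3cr1, the integrin chains Itga4, Itgal and Itgb1, the selectin ligand gene Selplg, the chemokine receptor Cxcr4 and Klf2, a transcription factor of cell trafficking. Itga4 stood at 298 CPM in RGX-104 and 524 CPM in control (0.569, 0.473 to 0.683), and the others after Cx3cr1 had ratios of 0.599 (Selplg) to 0.654 (Itgal). Of the higher ones, Fpr2, a receptor for formylated peptides, stood at 96.8 CPM in RGX-104 and 36.7 CPM in control (2.63-fold, 1.58 to 4.59). Ccr2 was within 1.5-fold, with 323 UMIs in RGX-104 and 215 in control.

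Inflammatory mediators differed in named members more than as lists. Il1b stood at 3246 CPM in RGX-104 and 2087 CPM in control (1.56-fold, 1.45 to 1.67), and Il1rn, the antagonist of its receptor, at 273 CPM in RGX-104 and 130 CPM in control (2.09-fold, 1.58 to 2.79). They were the 2 higher of 5 measured cytokine genes, and 0 were lower, beside 7.8% higher and 10% lower of all measured genes. Acod1, which makes itaconate, had 45 UMIs in 16 RGX-104 cells and 6 UMIs in 3 control cells (5.99-fold, 2.55 to 17.2). Ptgs2, the inducible cyclooxygenase, stood at 469 CPM in RGX-104 and 226 CPM in control (2.08-fold, 1.68 to 2.58). The 14 Nos2 UMIs of RGX-104 came from 1 cell, and control had 0. Of 16 measured immediate early genes, which respond to tissue dissociation, 0 were higher and 0 lower by 1.5-fold.

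Of 9 measured costimulatory and coinhibitory ligands 4 were higher in RGX-104 and 0 lower, beside 7.8% higher and 10% lower of all measured genes. Cd86 stood at 95.3 CPM in RGX-104 and 44.1 CPM in control (2.16-fold, 1.34 to 3.61), Cd274, the gene of PD-L1, at 169 CPM in RGX-104 and 108 CPM in control (1.56-fold, 1.13 to 2.17), and Cd40 at 96.8 CPM in RGX-104 and 62.5 CPM in control (1.55-fold, 1.01 to 2.42). Of 12 measured Fc and complement receptor genes 3 were higher and 0 lower. Of 14 measured genes of pattern recognition 2 were higher and 3 lower. The same shares of all measured genes, 7.8% higher and 10% lower, stand beside these counts, which are of few genes and were not tested.

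Single cells spread widely. Interferon-induced GTPases made up a median of 5.38 UMIs per 10000 of a cell in RGX-104 (quartiles 2.15 and 24.8, highest 200.1) and 1.92 in control (quartiles 0 and 3.48, highest 35.8). None of their UMIs were seen in 10 RGX-104 cells and 26 control cells. The LXR list was more even, at a median of 27.2 UMIs per 10000 in RGX-104 (quartiles 21.0 and 38.7) and 16.9 in control (quartiles 9.86 and 21.9). The cholesterol list stood at a median of 7.38 in RGX-104 and 2.41 in control. The nonclassical list stood at a median of 14.9 in RGX-104 (quartiles 6.16 and 36.6) and 31.3 in control (quartiles 15.6 and 55.0). The ranges between quartiles overlapped between the chows in all of these lists.

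**Figure D3:**
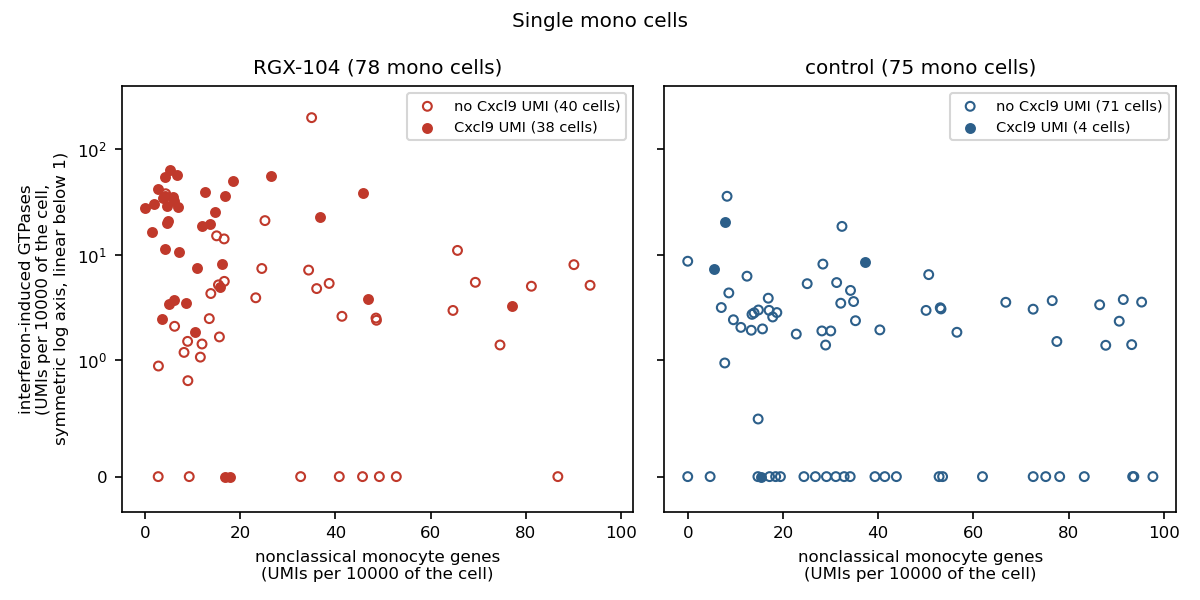
Each point is 1 mono cell, with RGX-104 left and control right. The horizontal axis gives UMIs of the nonclassical monocyte list and the vertical axis UMIs of the interferon-induced GTPases, both per 10000 UMIs of the cell, the vertical one symmetric logarithmic, and filled points have a Cxcl9 UMI. There are 38 filled points in RGX-104 and 4 in control. The GTPase values reach 35.8 in control and 200.1 in RGX-104, where that value is 1 cell and the next highest is 64.3.

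Within the RGX-104 library the 38 cells with a Cxcl9 UMI were set beside the 40 without, a split chosen after its values were seen. Iigp1 stood at 356 CPM in cells with Cxcl9 and 3.40 CPM in cells without. Ly6a stood at 1235 CPM in cells with Cxcl9 and 119 CPM in cells without, and Ly6c2 at 1991 CPM in cells with it and 1024 CPM in cells without. Ace went the other way, at 46.4 CPM in cells with Cxcl9 and 275 CPM in cells without. H2-Ab1 stood at 6837 CPM in cells with Cxcl9 and 4003 CPM in cells without. The cholesterol exporters did not follow this split. Abca1 stood at 196 CPM in cells with Cxcl9 and 190 CPM in cells without, and Abcg1 at 248 CPM in cells with it and 238 CPM in cells without. Other LXR list members differed in direction. Apoe stood at 487 CPM in cells with Cxcl9 and 1251 CPM in cells without, and Mylip at 74.8 CPM and 156 CPM. Scd2 stood at 418 CPM in cells with Cxcl9 and 303 CPM in cells without, and Srebf1 at 106 CPM and 95.2 CPM.

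Mono was also split by its subset genes and set side by side between chows. This split is no separate support for the one by Cxcl9. Of the 38 RGX-104 cells with a Cxcl9 UMI, 31 had no UMI of Ace or Treml4. In cells without a UMI of Ace or Treml4, 44 in RGX-104 and 27 in control, Cxcl9 stood at 1477 CPM in RGX-104 and 14.3 CPM in control. Their median depth was 8449.5 UMIs in RGX-104 and 5244 UMIs in control, and a shallow cell can miss such a UMI. Ly6a stood at 1241 CPM in RGX-104 and 86.0 CPM in control in these cells. In cells with such a UMI, 34 in RGX-104 and 48 in control, the median depth was 8021 UMIs in RGX-104 and 7146 UMIs in control. Cxcl9 stood at 301 CPM in RGX-104 and 74.6 CPM in control in these cells (4.04-fold, 2.56 to 6.59). This ratio rests on few cells, 7 in RGX-104 and 2 in control. In each library 1 cell gave most of the Cxcl9 UMIs, 61 of 84 in RGX-104 and 22 of 25 in control. Ly6a was lower in cells with such a UMI, at 50.2 CPM in RGX-104 and 134 CPM in control (0.374, 0.190 to 0.694). Scd2 was higher in both kinds of cells, 12.8-fold (6.10 to 32.4) without and 23.4-fold (8.79 to 88.1) with a UMI of Ace or Treml4. Abca1 was higher 8.73-fold (3.59 to 27.6) without and 5.77-fold (2.88 to 12.8) with such a UMI. Whether these ratios differ between the kinds of cells was not tested, nor was the part that the mix of such cells in mono has in the ratios over all its cells.

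Beside 5 other APC types that had 50 or more cells in both libraries, mono had the highest median of the GTPase list. It was 2.76 in mono, 0.84 in rcDC1, 0.53 in rcDC2, 0.09 in mLC, 0.04 in mcDC2 and -0.04 in mcDC1, over 5 to 9 measured members. Cxcl9 was 19.4-fold higher in mono and 1.54-fold higher in rcDC1 (835 CPM in RGX-104 and 541 CPM in control), and in rcDC2 it stood at 74.4 CPM in RGX-104 and 74.2 CPM in control. Scd2 had ratios of 18.2 in mono and 5.28 (mLC) to 15.7 (mcDC1) in the others, and Abcg1 of 3.01 in mono and 2.14 (mLC) to 4.14 (rcDC2) in the others. The LXR list median was lowest in mono, at 0.21, over measured members that differ between types. Macrophages, with 52 cells in RGX-104 and 27 in control, were too few for this comparison. A Cxcl9 UMI occurred there in 39 RGX-104 cells and 4 control cells, and an Iigp1 UMI in 27 RGX-104 cells and 0 control cells. The median depth of macrophages was 11396 UMIs in RGX-104 and 4415 UMIs in control. A shallow cell can miss a UMI, and these counts were not thinned. All types come from the same 2 libraries, and a difference between types has no test, so nothing here is called particular to mono.

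**Figure D4:**
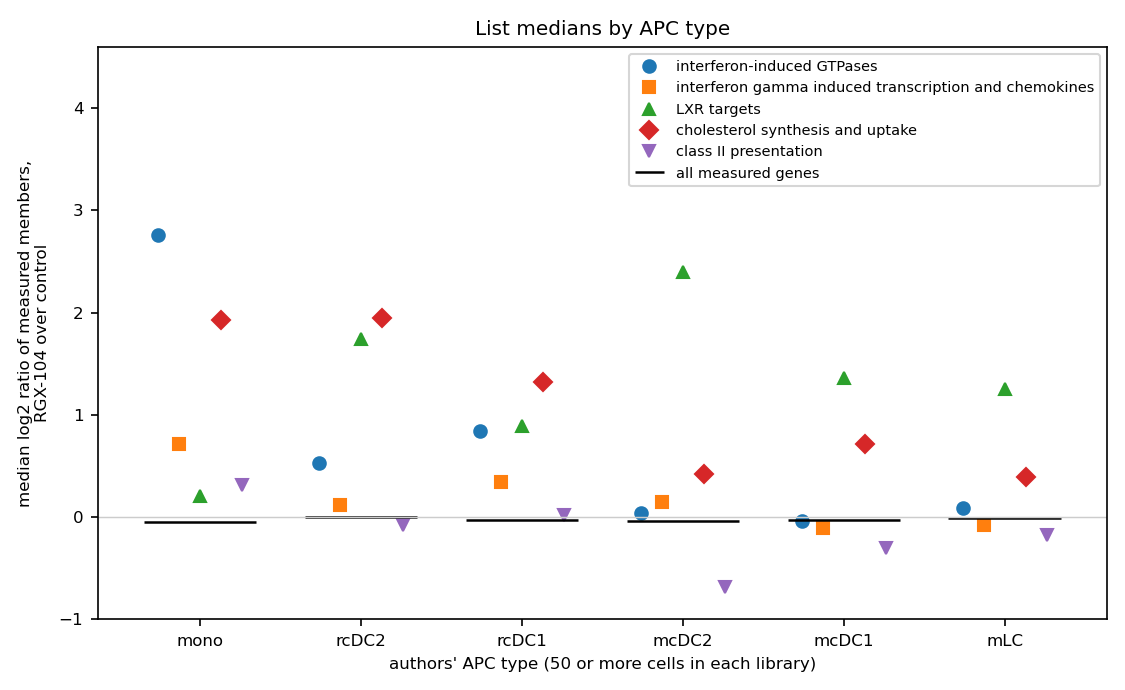
Points give the median log2 ratio, RGX-104 over control, of the measured members of 5 lists in 6 APC types, and black bars the median of all measured genes. The GTPase point stands at 2.76 in mono and at 0.84 or below in the other types, while the cholesterol point of mono (1.92) lies near that of rcDC2 (1.95).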

How the data were processed

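The matrices that the authors deposited give whole UMI counts of 32285 genes in each barcode, and per the file headers Cell Ranger 5.0.0 wrote them. Seurat 5.0.3 and the build mm10 are named in the submitters' processing notes. The APC table that the authors deposited gives each cell's counts of UMIs and genes, its mitochondrial percent, its cell cycle scores (a unitless score, as deposited) and its type, but no barcode. Cells were joined to barcodes by UMIs and genes over genes seen in 3 or more barcodes, and by mitochondrial percent (tolerance 1e-06). All 2944 RGX-104 and 2881 control cells matched exactly 1 barcode. TCR contig tables, deposited as counts per contig, served only for barcodes. No other sample column was left unused (0).

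Counts of mono cells were summed per library and divided by their total (CPM, Python 3.11.15, scipy 1.17.1). Ratios carry exact conditional binomial intervals, shares Clopper-Pearson intervals. No p-value was computed, since each chow has 1 library. A ratio to 0 is a bound against 3 counts.

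The members and the 36 lists were chosen with earlier results of these data known. Named genes are the 12 highest and 12 lowest by the bound nearest 1 among measured genes of at least 20 CPM in a library, up to 4 members per list, and a set of fixed markers and targets. Receptor, immunoglobulin, mitochondrial, ribosomal protein and unnamed genes were not ranked, nor were genes with over 50% of a library's UMIs from 1 cell. The 7 symbols Cxcl11, Irgd, Irgb10, Mx1, Mx2, Clec7a and Sting1 are not in the tables under these names. Some list members are counted but not reported here by name.

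No cell was removed as a doublet. Scrublet (scanpy 1.11.5) marked 0 barcodes by its automatic threshold, and the 6% with the highest scores held 0 mono cells. TMM factors came from edgeR 4.0.16 in R 4.3.3. The interval was tried on simulated counts drawn independently for each gene, as the interval itself assumes. That does not test it for genes whose UMIs come from few cells. Positions and promoters are RefSeq's for GRCm38.p6, the assembly behind mm10. PCR and capture share sources of error that the intervals leave out.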

Additional observations from a re-analysis of the deposited data

Results flagged for a closer look

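Cd74 and H2-Aa in mono ran against several other APC types. Cd74, the invariant chain, was 1.24-fold higher in RGX-104 mono (1.21 to 1.28), while its interval lay below 1 in rcDC1 (0.965), mcDC2 (0.646), mcDC1 (0.870) and mLC (0.709), and its interval held 1 in rcDC2 (1.01). H2-Aa was 1.33-fold higher in RGX-104 mono (1.27 to 1.38), with intervals below 1 in mcDC2 (0.587), mcDC1 (0.881) and mLC (0.900) and above 1 in rcDC1 (1.06), and one that held 1 in rcDC2 (0.996). H2-Ab1 was likewise higher in mono (1.37) and in rcDC1 (1.10). Of 13 measured class II genes in mono 2 were higher by 1.5-fold or more and 2 lower. Of all measured genes 7.8% were higher and 10% lower. The difference between types was not tested, since each chow has 1 library. In mono cells with a UMI of Ace or Treml4 the log2 ratio of Cd74 was -0.13.

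Barcodes outside the authors' annotation also carried the markers of mono. At least 4 of the 5 markers had a UMI in 38 of 5727 unannotated RGX-104 barcodes (0.664%, 0.470% to 0.910%) and 6 of 4465 unannotated control barcodes (0.134%, 0.0493% to 0.292%). Of these, 14 in RGX-104 and 3 in control also had a TCR contig, 27 in RGX-104 and 4 in control had 2 or more UMIs of T cell markers, and 25 in RGX-104 and 6 in control had 2 or more of B cell markers. Among annotated mono cells 49 of 78 in RGX-104 and 29 of 75 in control met the same rule of 4 markers. Of those, 16 of 49 in RGX-104 and 14 of 29 in control had 2 or more UMIs of B cell markers. For T cell markers these were 6 in RGX-104 and 1 in control. Annotated and unannotated barcodes together gave 87 in RGX-104 and 35 in control, a ratio of 2.11 (1.41 to 3.21) of all barcodes, against 0.881 (0.633 to 1.23) for annotated mono. What part barcodes of more than 1 cell have in this was not tested.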

How the results depend on the processing

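No paired analysis was possible because each chow has 1 library, and for the same reason no replicate could be left out. The Scrublet alternative removed 0 mono cells and is not counted here, and other scalings shift all genes alike. Of 627 values of 47 named genes under 15 alternatives, 497 stayed within the interval of the value reported and 130 did not. Of them 23 changed sign, 10 for genes whose interval excluded a ratio of 1 (given below) and 13 for Csf1r, Fcgr1, Lpl, Ms4a4c and Plac8, whose interval held it. Of 314 values of 23 list medians, 271 stayed and 43 did not, and 53, of 15 lists, changed sign, the classical monocyte, type I interferon, class I and class II lists among them. The cause of a change was not tested, except that other minimums, thinning and subsets change which genes or cells are counted. The numbers at least 1.5-fold higher (257) and lower (330) were 1121 and 1357 at a minimum of 10 UMIs, 56 and 62 at 200, and 554 and 613 with cells thinned to 2000 UMIs. They were 52 and 89 in cells without a Ly6c2 UMI, 122 and 147 in cells with a UMI of Ace or Treml4, and 91 and 67 at a fold of 2. Without cells that had T or B cell marker UMIs 194 were lower. The LXR median (0.21) was 1.22 at a minimum of 10 UMIs, 1.38 with thinned cells, 1.25 in cells with a Ly6c2 UMI and 1.01 as a mean of per-cell CPM. The interferon gamma median (0.71) was 1.39 at a minimum of 200 UMIs, and the GTPase median (2.76) 1.72 with thinned cells. The nonclassical median (-0.96) was -0.31 in cells without a Ly6c2 UMI. The class I median (0.30) was -0.16 in cells without a Ly6c2 UMI, 0.77 in cells without and -0.12 in cells with a UMI of Ace or Treml4. The class II median (0.32) was 0.36 with TMM factors, 0.37 with median-of-ratios factors, 0.41 at a minimum of 10 UMIs, 0.36 without the top cell of each gene, 0.57 in cells with a Ly6c2 UMI, 0.21 in cells without C1q UMIs and 0.65 without cells that had T or B cell marker UMIs. It was 0.51 in cells without a UMI of Ace or Treml4, and it changed sign to -0.038 in cells without a Ly6c2 UMI and -0.088 in cells with a UMI of Ace or Treml4. In cells with a UMI of Ace or Treml4, log2 ratios also changed sign to -0.13 for Cd74, 0.70 for Fn1, -0.0056 for H2-Aa, -0.076 for H2-Ab1, -1.42 for Ly6a and 0.23 for Nr4a1. In cells without a Ly6c2 UMI they did so to -0.012 for H2-Aa, -0.11 for H2-Ab1 and -0.19 for Il1b, and in cells without a UMI of Ace or Treml4 to -0.19 for Ccr2. The splits by Ace, Treml4 and absence of Ly6c2 were chosen after seeing the data. Absence of a UMI also depends on depth. Cells without a Ly6c2 UMI had a median of 6055 UMIs in RGX-104 and 3712 UMIs in control. A gene with 0 UMIs in a library can stand at up to 4.40 CPM in RGX-104 mono and 5.51 CPM in control mono by counting error alone.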

Other observations

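Ifng, the gene of interferon gamma, had 0 UMIs in the mono cells of both libraries. In the annotated T cells of the same libraries it stood at 24.3 CPM in RGX-104 (275 UMIs, 57 of 1995 cells) and 5.06 CPM in control (58 UMIs, 32 of 2099 cells), 4.81-fold higher (3.61 to 6.49). Of the RGX-104 UMIs 29.1% came from 1 cell. Cxcr3, the receptor for CXCL9 and CXCL10, stood at 34.7 CPM in the T cells of RGX-104 and 24.3 CPM in those of control (1.43-fold, 1.22 to 1.67), with a UMI in 217 RGX-104 and 168 control cells.

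Of 14 measured genes of lipid handling and engulfment in mono, 3 were higher by 1.5-fold or more and 4 lower, beside 7.8% higher and 10% lower of all measured genes, and their median log2 ratio was 0.015. Axl, a receptor for dying cells, had 45 UMIs in RGX-104 and 16 in control (2.25-fold, 1.25 to 4.26), and Lipa, the lysosomal acid lipase, 18 in RGX-104 and 32 in control (0.449, 0.237 to 0.825). Of 12 measured genes of glycolysis 4 were higher and none lower, among them Gapdh at 961 CPM in RGX-104 and 569 CPM in control (1.69-fold, 1.47 to 1.94) and Aldoa at 494 CPM in RGX-104 and 290 CPM in control (1.70-fold, 1.41 to 2.07). Nr4a3, a nuclear receptor induced by signals at the cell surface, stood at 226 CPM in RGX-104 and 91.8 CPM in control (2.46-fold, 1.78 to 3.45), while 36.0% of its control UMIs came from 1 cell.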
